A study of Homo sapiens with 6 samples.

Results

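Protein cutting at or outside the cell surface was followed through the transcripts of 4 genes: ADAM17 and ADAM9, which encode membrane-anchored sheddases, DPP4, which encodes dipeptidyl peptidase 4 (CD26), and CPA4, which encodes the secreted carboxypeptidase A4. The genes were listed by name with earlier results of these arrays known, chosen by their siATM and sip53 differences, so their values are described here and not tested. All 4 of 4 were named on the array, each by 1 probe set, among 14884 named genes. All 4 also passed the limit on dim genes, a mean of at least 5.96 on the log2 scale over the 6 arrays, among 10640 genes that did.

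The arrays measured total RNA of MDA-MB-231 cells, a human line from a triple-negative breast tumour, known for its mutant p53. Cells were transfected with siATM, a small interfering RNA against the DNA damage kinase ATM, with sip53, against p53, or with the control siRNA siNC, always with the reagent Lipofectamine RNAiMAX, and each siRNA has 2 arrays. All groups are the same line, kept in DMEM with serum. The labels give neither the time after transfection, nor the siRNA sequences, nor whether replicates are separate cultures. Errors and p-values therefore measure the spread between the samples given, which may be only technical.

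A sheddase cuts a membrane protein close to the membrane and releases its outer part. ADAM17 is the main releasing enzyme of TNF and of several ligands of the EGF receptor, needs the iRhom proteins to leave the endoplasmic reticulum, and is inhibited by TIMP3, while ADAM9 is a broadly expressed relative. DPP4 is a surface serine peptidase that removes dipeptides from the start of chemokines and incretin hormones, and CPA4 is a zinc enzyme that removes single residues from the other end of peptides.

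The array values had medians between 5.95 and 5.98. Over the tested genes the SD of the difference between the 2 arrays of a group was 0.148 for siATM, 0.115 for sip53 and 0.124 for siNC, against 0.205 to 0.291 between arrays of different groups. All 6 named basal mesenchymal markers, VIM, CD44, AXL, MSN, ZEB1 and EGFR, lay above the limit. Of 8 named luminal markers, ESR1, PGR and FOXA1 lay below it, at means of 5.73, 4.79 and 5.31, and 5 lay above it. The limit is not a detection call, and these arrays have no true zero.

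All 4 transcripts were highest in siATM cells. DPP4 stood 2.49-fold, CPA4 2.16-fold, ADAM17 1.53-fold and ADAM9 1.26-fold above siNC. After sip53, DPP4 was 1.33-fold above siNC and ADAM17 1.09-fold, while ADAM9 and CPA4 lay within 0.05 of siNC on the log2 scale. In bulk RNA, a change in the number of cells that hold a transcript and a change in its amount per cell cannot be told apart.

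**Figure D1:**
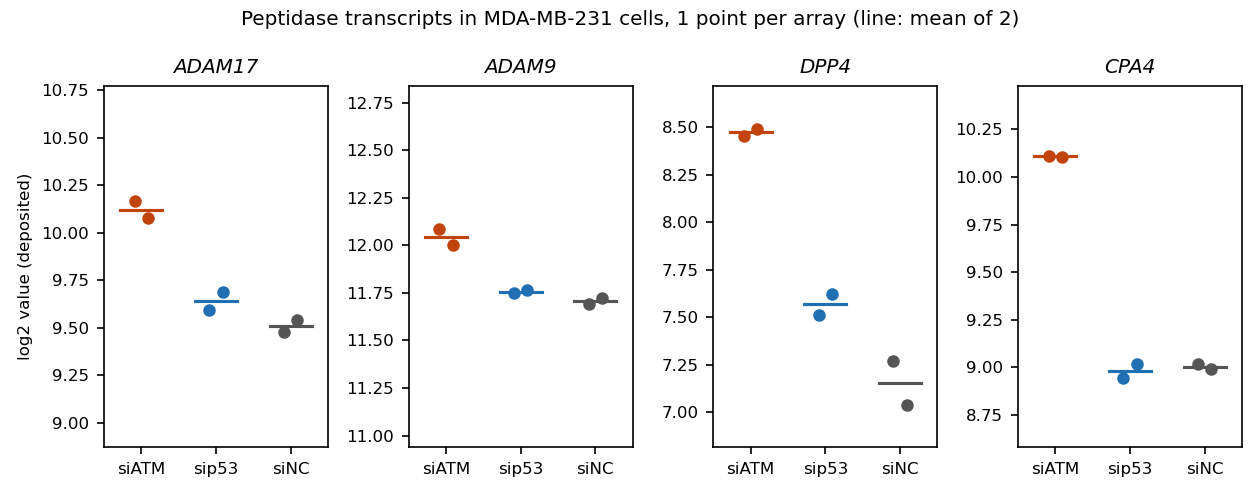
Deposited log2 values of the 4 peptidase transcripts, 1 point per array and a line at the mean of 2, for siATM, sip53 and siNC. Every panel spans the same range of log2 units but starts at its own value. Both siATM points lie above all others in each panel, by 0.24 for ADAM9 and by 1.09 for CPA4, and the CPA4 points of sip53 and siNC overlap.

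ADAM17 had log2 values of 10.16 and 10.08 in siATM cells, 9.59 and 9.69 in sip53 cells, and 9.48 and 9.54 in siNC cells. The siATM arrays lay 0.53 above the higher siNC array, and the sip53 arrays 0.05 above it, so no groups overlapped. The mean was 10.12 ± 0.06 with siATM, 9.64 ± 0.07 with sip53 and 9.51 ± 0.05 with siNC (SD, n = 2 each). The log2 difference from siNC was 0.61 (SE 0.07) for siATM and 0.13 (SE 0.07) for sip53, and siATM lay 0.48 (SE 0.07) above sip53. The sip53 difference was 0.083 without sip53 replicate 2 and 0.18 without sip53 replicate 1.

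ADAM9 showed the same order with a smaller step. Its log2 values were 12.08 and 12.00 with siATM, 11.75 and 11.77 with sip53, and 11.69 and 11.72 with siNC. The mean was 12.04 ± 0.06 with siATM, 11.76 ± 0.01 with sip53 and 11.71 ± 0.02 with siNC (SD, n = 2 each). The log2 difference from siNC was 0.34 (SE 0.06) after siATM, with siATM 0.29 (SE 0.06) above sip53. The difference was 0.05 (SE 0.06) after sip53, which is below its own error although the 4 arrays did not overlap. This sip53 difference was 0.033 without siNC replicate 1, 0.017 with each array centred on its median and 0.026 with quantile normalization.

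DPP4 had the largest difference of the 4 genes and the widest control spread. Its log2 values were 8.45 and 8.49 in siATM cells, 7.51 and 7.62 in sip53 cells, and 7.27 and 7.04 in siNC cells. The mean was 8.47 ± 0.03 with siATM, 7.57 ± 0.08 with sip53 and 7.15 ± 0.16 with siNC (SD, n = 2 each). The siATM arrays lay 1.19 above the higher siNC array and the sip53 arrays 0.25 above it. The log2 difference from siNC was 1.32 (SE 0.09) for siATM and 0.42 (SE 0.09) for sip53, and siATM lay 0.90 (SE 0.09) above sip53. Without siNC replicate 1 these differences from siNC were 1.43 and 0.53, and without siNC replicate 2 they were 1.20 and 0.30.

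CPA4 was high with siATM and level between sip53 and siNC. Its log2 values were 10.11 and 10.11 with siATM, 8.94 and 9.02 with sip53, and 9.01 and 8.99 with siNC. The mean was 10.11 ± 0.0039 with siATM, 8.98 ± 0.05 with sip53 and 9.002 ± 0.018 with siNC (SD, n = 2 each), and the siATM replicates lay closer together than for the other 3 genes. The log2 difference was 1.11 (SE 0.06) for siATM and −0.02 (SE 0.06) for sip53 against siNC, and the sip53 and siNC arrays overlapped. The siATM arrays lay 1.13 (SE 0.06) above sip53 on average. The sip53 difference was 0.02 without sip53 replicate 1 and −0.06 without sip53 replicate 2, so it has no settled sign.

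Against siNC, 4 of the 4 genes were called higher after siATM in the limma fit of all tested genes, where 12.5% of genes were (adjusted p below 0.05), with 13.0% lower and 25.5% called in all. After sip53 it was 1 of 4, DPP4, against 5.47% of genes higher, 5.11% lower and 10.6% called in all. In the direct comparison of siATM with sip53 it was 4 of 4, against 14.0% of genes higher, 16.3% lower and 30.3% in all. The siATM arrays lay wholly above the siNC arrays for 4 of 4, as for 31.9% of tested genes, and the sip53 arrays for 3 of 4, as for 33.1%. The siATM arrays lay wholly above the sip53 arrays for 4 of 4, as for 31.0%. Because the genes were listed with these contrasts known, the counts describe the choice and carry no further weight.

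Since all 4 transcripts were higher with siATM, the stretches before their annotated starts were compared for ADAM17, DPP4 and CPA4, the 3 found in the RefSeq promoter table. Each line gives the 250 bases before the start, in the gene's own direction, and capitals mark motif matches.
ADAM17: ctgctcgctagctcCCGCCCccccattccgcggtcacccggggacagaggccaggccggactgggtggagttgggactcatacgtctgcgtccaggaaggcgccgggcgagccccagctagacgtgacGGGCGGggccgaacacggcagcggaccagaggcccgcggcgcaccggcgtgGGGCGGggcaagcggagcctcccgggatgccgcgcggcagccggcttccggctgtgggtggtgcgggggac
DPP4: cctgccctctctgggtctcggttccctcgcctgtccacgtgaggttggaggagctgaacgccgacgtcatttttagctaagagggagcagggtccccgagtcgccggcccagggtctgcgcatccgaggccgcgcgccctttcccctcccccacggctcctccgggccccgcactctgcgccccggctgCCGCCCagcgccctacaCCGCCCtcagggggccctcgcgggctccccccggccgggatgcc
CPA4: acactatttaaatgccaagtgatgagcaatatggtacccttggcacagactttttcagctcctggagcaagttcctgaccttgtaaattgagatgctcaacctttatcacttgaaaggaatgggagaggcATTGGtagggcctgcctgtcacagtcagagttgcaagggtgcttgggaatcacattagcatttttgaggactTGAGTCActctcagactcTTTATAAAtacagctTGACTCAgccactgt
They lie at chr2:9555831-9556080 (minus strand), chr2:162074216-162074465 (minus strand) and chr7:130292911-130293160 (plus strand) of GRCh38.p14, and these coordinates are RefSeq's, not those of the array design. Motifs were searched on both strands and were chosen with the sequences in view. The AP-1 element was searched as TGANTCA. The TATA box, a core promoter element, was spelled TATAAA, and the CCAAT box was spelled by its own name. The GC box, which binds Sp1, was searched as GGGCGG. The cyclic AMP response element was searched as TGACGTCA, and it matched in none of these stretches, while 1.65% of all promoter stretches hold it. The forkhead element was searched as GTAAACA, which also matched in none of them and occurs in 2.98% of all.

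No searched motif matched in all 3 stretches. ADAM17 and DPP4 are GC-rich, at 75.6% and 73.6% G or C, against a median of 58% over 35116 promoter stretches of the same length, and CPA4 is at 44.4%. The GC box matched 3 times in ADAM17 and 2 times in DPP4, and 42.6% of all stretches hold it. CPA4 held 2 AP-1 matches, starting 48 and 15 bases before the start, with a TATA box between them, 28 bases before the start. That TATA match overlaps a match on the other strand. At least 1 AP-1 match occurs in 6.57% of all stretches and 2 or more in 0.402%. The TATA box occurs in 10.7% of them and the CCAAT box, which CPA4 also held once, in 32%. A match describes letters and is not a binding site, and these stretches were not measured in this study.

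Of the other ADAM genes, 1 of 7 with an active site was called higher after siATM and 1 of 7 after sip53, and it was ADAM28 both times. Over all tested genes, 12.5% were higher and 13.0% lower after siATM, and 5.47% and 5.11% after sip53. The counts of every gene list below are to be read against these shares. ADAM28, a membrane-bound and secreted relative, had log2 values of 8.73 and 8.71 with siATM, 8.25 and 8.13 with sip53, and 7.67 and 7.70 with siNC. Its log2 difference from siNC was 1.04 (SE 0.06, limma adjusted p = 0.000202) after siATM and 0.51 (SE 0.06, adjusted p = 0.00417) after sip53, and siATM lay above sip53 by 0.53 (adjusted p = 0.00105). All 3 calls held when any 1 array was left out. ADAM10, the other main sheddase, had log2 values of 12.19 and 12.04 with siATM, 12.08 and 11.99 with sip53, and 11.99 and 11.87 with siNC, and its difference after siATM was 0.19 (SE 0.08, adjusted p = 0.117). Of 2 tested ADAM genes without an active site, ADAM22 was higher after sip53 (0.46, adjusted p = 0.0141), a call lost without any 1 of the sip53 and siNC arrays (up to 0.0936). The median log2 difference of the 7 genes with an active site was −0.10 after siATM and 0.04 after sip53, against −0.0006 and 0.01 over all tested genes.

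Genes that carry ADAM17 and ADAM10 to the surface or mature them were called in part after siATM. Of 13 tested, 4 were higher, RHBDF1, TSPAN15, FRMD8 and FURIN, and 1, TSPAN33, was lower, with a median log2 difference of 0.10. The shares over all tested genes were 12.5% higher and 13.0% lower. FURIN, the convertase that cuts off the ADAM prodomain, was chosen for naming after its value was seen. RHBDF1, which encodes iRhom1, an escort of ADAM17, was 0.48 above siNC (SE 0.08, limma adjusted p = 0.00573) and was called whichever array was left out. The count higher was 2 without any 1 of the siATM and siNC arrays, and TSPAN33 did not pass without siNC replicate 1, siNC replicate 2 or siATM replicate 1 (adjusted p up to 0.0978). RHBDF2, which encodes iRhom2, did not pass after siATM (0.10, adjusted p = 0.458) or after sip53 (−0.24, adjusted p = 0.139). In the direct comparison, RHBDF2 was among 4 of the 13 genes called higher with siATM than with sip53, and 2 were lower. Over all tested genes, 14.0% were higher and 16.3% lower there. The direct call of RHBDF2 did not hold in every fit without 1 array. After sip53, 0 of 13 passed in limma, where 10.6% of all tested genes did, and at unadjusted p below 0.05 there was 1 higher and 1 lower.

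Among 5 tested metalloproteinase inhibitors, RECK and TIMP3 were higher after siATM and TIMP2 was lower, where 12.5% of all tested genes were higher and 13.0% lower. RECK, a membrane-anchored inhibitor of matrix metalloproteinases and ADAM10, had log2 values of 9.43 and 9.45 with siATM, 8.95 and 9.04 with sip53, and 8.70 and 8.65 with siNC. It rose by 0.77 after siATM (SE 0.06, limma adjusted p = 0.000447) and by 0.33 after sip53 (SE 0.06, adjusted p = 0.0175). The sip53 call was lost without any 1 of the sip53 and siNC arrays (adjusted p up to 0.130). TIMP3, the inhibitor of ADAM17, rose by 0.33 after siATM (SE 0.06, adjusted p = 0.00632) and was at 0.06 after sip53 (adjusted p = 0.573). TIMP2 fell by 0.23 after siATM (adjusted p = 0.0237) but did not pass without siNC replicate 1, siNC replicate 2 or siATM replicate 1 (up to 0.109).

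**Figure D2:**
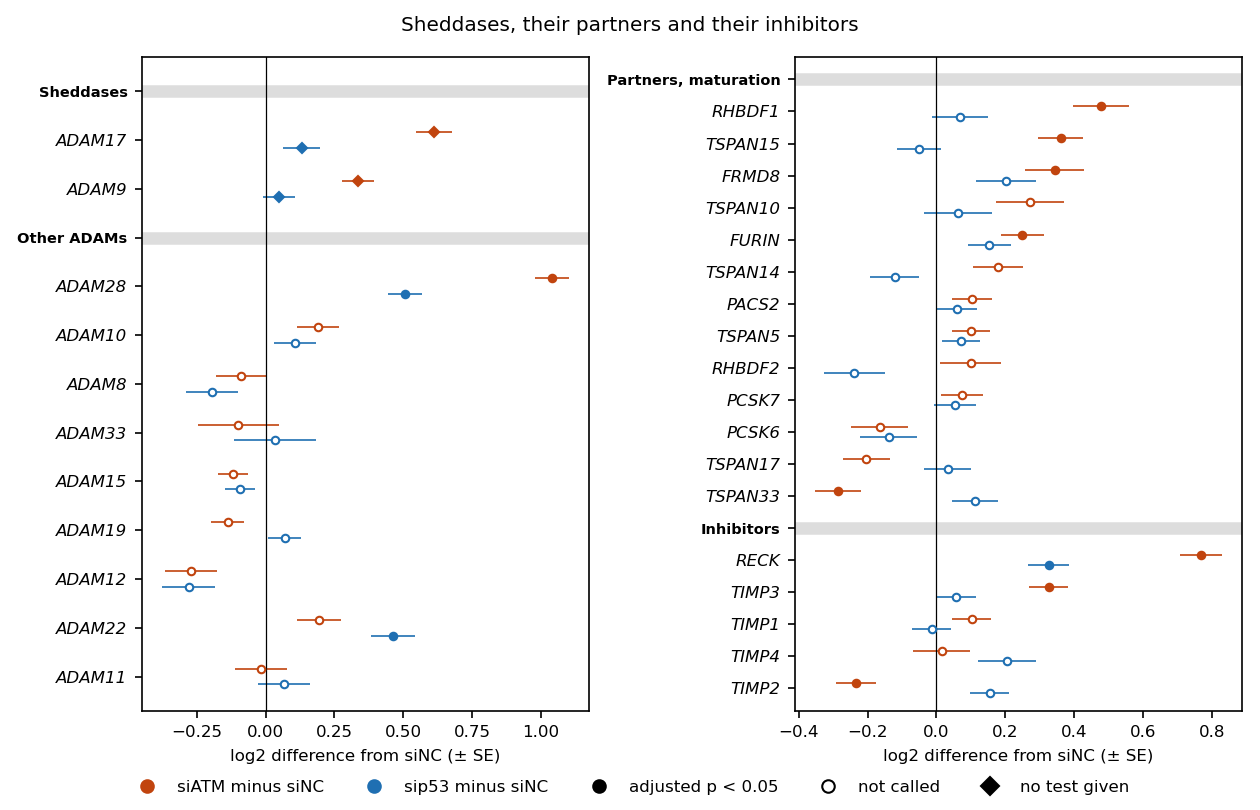
Log2 difference from siNC, with its moderated SE, of ADAM17 and ADAM9 (diamonds) and of the other tested ADAM genes, partners and inhibitors, for siATM (red) and sip53 (blue). Filled circles have a limma adjusted p below 0.05, and the highest siATM circles are ADAM28 at 1.04 and RECK at 0.77.

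Transcripts of proteins that sheddases release moved in both directions. Of 6 tested EGF-family ligands, EREG and NRG1 were higher and EGF lower after siATM, where 12.5% of all tested genes were higher and 13.0% lower. After sip53, NRG1 was higher, and HBEGF, EGF and NRG2 were lower, where 5.47% of all tested genes were higher and 5.11% lower. The median log2 difference of the ligands was 0.17 after siATM and −0.29 after sip53. EGF had a log2 difference of −0.46 after siATM (SE 0.06, limma adjusted p = 0.00169) and −0.61 after sip53 (SE 0.06, adjusted p = 0.00192), and was called whichever array was left out. Its mean was 6.26 with siATM, 6.11 with sip53 and 6.72 with siNC, which is dim beside the limit of 5.96. HBEGF, a ligand released by ADAM17, was 0.58 higher with siATM than with sip53 (SE 0.09, adjusted p = 0.00259), and EREG was 0.50 higher (SE 0.06, adjusted p = 0.00145). Without siNC replicate 2, neither EREG nor NRG1 passed for siATM (adjusted p up to 0.0809 and 0.0768), EREG also not without siATM replicate 1. After sip53, NRG1 lost its call without either sip53 array or siNC replicate 2 (up to 0.0694), HBEGF without either sip53 array or siNC replicate 1 (up to 0.173), and NRG2 without any 1 of the sip53 and siNC arrays (up to 0.105).

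Of 34 tested genes for other shed proteins, 8 were higher and 5 lower after siATM, with a median log2 difference of −0.06. The 5 lower were TNF, VCAM1, MERTK, NGFR and PRNP, and the calls of TNF and PRNP did not hold in every fit without 1 array. After sip53, 3 were higher and 6 lower, with a median of 0.01. Over all tested genes, 12.5% were higher and 13.0% lower after siATM, and 5.47% and 5.11% after sip53. KITLG, the ligand of the KIT receptor, which ADAM17 can release, had log2 values of 9.26 and 9.23 with siATM, 8.22 and 8.26 with sip53, and 7.80 and 7.93 with siNC. Its log2 difference was 1.38 after siATM (SE 0.07, limma adjusted p = 9.02e-05). VASN, which encodes the TGF-beta binding protein vasorin, rose by 0.98 (SE 0.08, adjusted p = 0.000598), and IL6R, the interleukin 6 receptor gene, by 0.56 (SE 0.09, adjusted p = 0.00537). IL6R is dim, with means of 6.86 with siATM and 6.30 with siNC beside the limit of 5.96. MERTK, a receptor of the TAM family that ADAM17 can cut, fell by 0.61 (SE 0.07, adjusted p = 0.00158). After sip53, ICAM1 fell by 0.81 (SE 0.06, adjusted p = 0.00141) and MICB rose by 0.47 (SE 0.06, adjusted p = 0.00461), and MICB shares much of its sequence with MICA. These calls held whichever array was left out, but the 8 higher after siATM became 3 without siATM replicate 1, the 5 lower became 3 without either siNC array, the 3 higher after sip53 became 1 without either sip53 array, and the 6 lower became 1 without any 1 of the sip53 and siNC arrays.

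**Figure D3:**
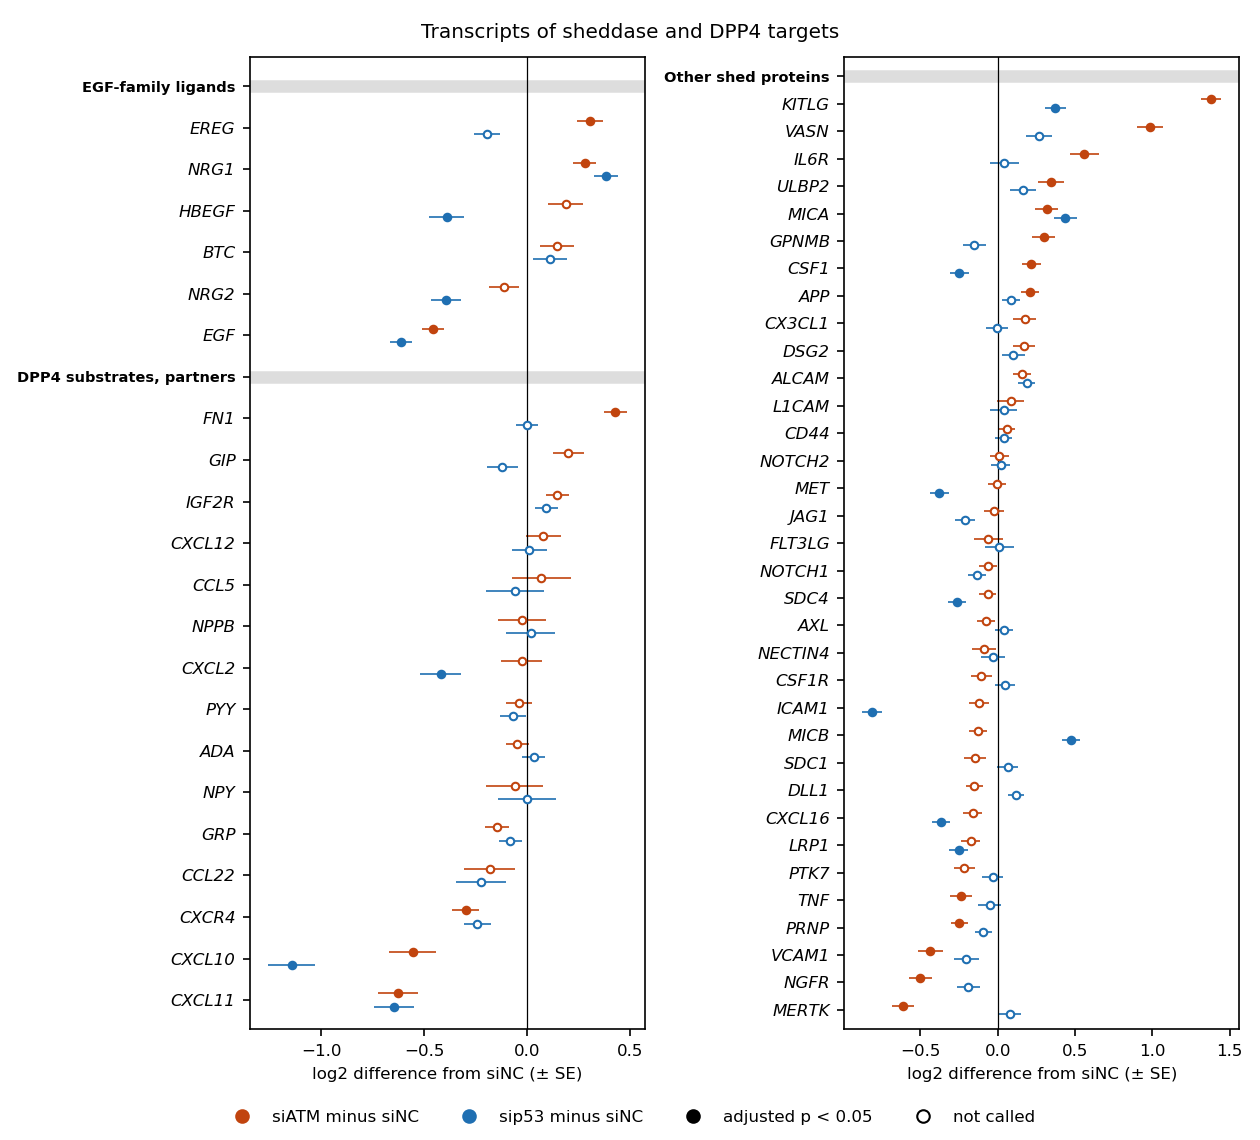
Log2 difference from siNC, with SE, of tested EGF-family ligands, DPP4 substrates and partners, and other shed proteins, ordered by the siATM value within each group. Red is siATM, blue is sip53, and filled circles have a limma adjusted p below 0.05. KITLG at 1.38 is the highest siATM value and CXCL10 at −1.15 the lowest sip53 value.

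Of 8 tested serine peptidases related to DPP4 or with similar action, 2 were higher and 0 lower after siATM, where 25.5% of all tested genes were called in either direction. They were DPP7, a lysosomal dipeptidyl peptidase (0.35, SE 0.08, limma adjusted p = 0.0185), and APEH, an acylpeptide hydrolase (0.30, SE 0.06, adjusted p = 0.00870). Neither passed without siNC replicate 1, and DPP7 also failed without siATM replicate 2 or siNC replicate 2 (adjusted p up to 0.0589 for APEH and 0.0886 for DPP7). DPP8 and DPP9, the cytosolic relatives, were at −0.03 and −0.06 after siATM, and FAP, the closest relative, was not analysed here. After sip53, 0 of 8 passed in limma, where 10.6% of all tested genes did, and 0 at unadjusted p below 0.05.

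CXCL10 and CXCL11, chemokines that DPP4 shortens, fell after both siRNAs. CXCL10 had log2 values of 6.99 and 7.002 with siATM, 6.37 and 6.44 with sip53, and 7.74 and 7.36 with siNC. Its log2 difference from siNC was −0.55 after siATM (SE 0.11, limma adjusted p = 0.0124) and −1.15 after sip53 (SE 0.11, adjusted p = 0.00241), and CXCL11 was at −0.63 (SE 0.10, adjusted p = 0.00403) and −0.65 (SE 0.10, adjusted p = 0.00843). The siATM call of CXCL10 was lost without either siATM array (adjusted p up to 0.0557) and the sip53 call of CXCL11 without sip53 replicate 2 (0.0647). Of all 15 tested substrates and binding partners of DPP4, 1 was higher and 3 lower after siATM, and 0 higher and 3 lower after sip53 in limma, with 0 higher at unadjusted p below 0.05. The shares over all tested genes were 12.5% higher and 13.0% lower after siATM, and 5.47% and 5.11% after sip53. The 3 lower were 1 without siATM replicate 1 for siATM and 1 without sip53 replicate 2 for sip53. FN1, which encodes the DPP4-binding matrix protein fibronectin, was the higher one at 0.43 (SE 0.05, adjusted p = 0.00201).

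CPA4 was compared with 11 tested genes of other carboxypeptidases and their inhibitors. After siATM, 4 were higher and 1, AGTPBP1, was lower, where 12.5% of all tested genes were higher and 13.0% lower. CPE, which trims peptide hormones, rose by 0.47 (SE 0.06, limma adjusted p = 0.0019) from a siNC mean of 6.09, near the limit of 5.96. The plasma glutamate carboxypeptidase gene CPQ rose by 0.42 (SE 0.08, adjusted p = 0.00772) and CPD, a membrane-bound carboxypeptidase, by 0.39 (SE 0.06, adjusted p = 0.00397). CPE, CPQ and CPD were called whichever array was left out. The other, CTSA, named after its value was seen, was at 0.20 and was not called in any fit without 1 array (adjusted p up to 0.128), and AGTPBP1 lost it without siATM replicate 2 or siNC replicate 1 (up to 0.0829). LXN, which encodes latexin, an inhibitor of A-type carboxypeptidases, was at 0.11 after siATM (adjusted p = 0.254).

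After sip53, 1 of these 11 genes was higher and 2 were lower, against 5.47% and 5.11% of all tested genes. CPM, a surface carboxypeptidase held by a lipid anchor, was lower. It had log2 values of 6.41 and 6.66 with sip53 and 7.41 and 7.42 with siNC, a difference of −0.88 (SE 0.09, limma adjusted p = 0.00253), and it was at −0.12 after siATM (adjusted p = 0.374). The direct comparison put CPM 0.76 higher with siATM than with sip53 (SE 0.09, adjusted p = 0.00111). AGTPBP1 was also lower and CPE higher after sip53, and both lost their call without any 1 of the sip53 and siNC arrays (adjusted p up to 0.207 and 0.0980).

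Among other proteases, calls are to be read against the 25.5% of all tested genes called after siATM and the 10.6% called after sip53. Of 6 membrane-type matrix metalloproteinases, MMP15 was higher after siATM (0.58, SE 0.09, limma adjusted p = 0.00372), while MMP14, the activator of MMP2, was at −0.08 (adjusted p = 0.399). Of 6 tested secreted ones, MMP8 was higher (0.48, adjusted p = 0.00340) and MMP1 lower after siATM, and MMP1 and MMP19 were lower after sip53. The collagenase gene MMP1 had log2 differences of −0.68 after siATM (SE 0.11, adjusted p = 0.00431) and −0.84 after sip53 (SE 0.11, adjusted p = 0.00458). MMP1 and MMP8 are dim, beside a limit of 5.96. The mean of MMP1 was 6.08 with siATM, 5.92 with sip53 and 6.76 with siNC, and that of MMP8 was 6.87, 6.15 and 6.39. Of 8 tested genes in a list of aminopeptidases and endopeptidases, most of them surface enzymes, ERAP2, which trims peptides inside the endoplasmic reticulum, was lower after siATM (adjusted p = 0.0196), and ADAMTSL4, which has no protease domain of its own, was higher after sip53 (adjusted p = 0.0380). ERAP2 did not pass without siNC replicate 1, siNC replicate 2 or siATM replicate 2 (up to 0.0978), and MMP19 and ADAMTSL4 without any 1 of the sip53 and siNC arrays (up to 0.0946 and 0.176).
Of 9 tested genes of rhomboids, gamma-secretase and BACE, 4 were higher after siATM and 1 was lower after sip53. SPPL2B, an intramembrane protease, was the one called higher whichever array was left out (0.42, adjusted p = 0.00552), and the 4 became 1 without either siNC array. None of 2 tested surface serine proteases passed in limma after either siRNA, nor at unadjusted p below 0.05, and the ADAMTS and plasminogen activation genes were not analysed here.

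**Figure D4:**
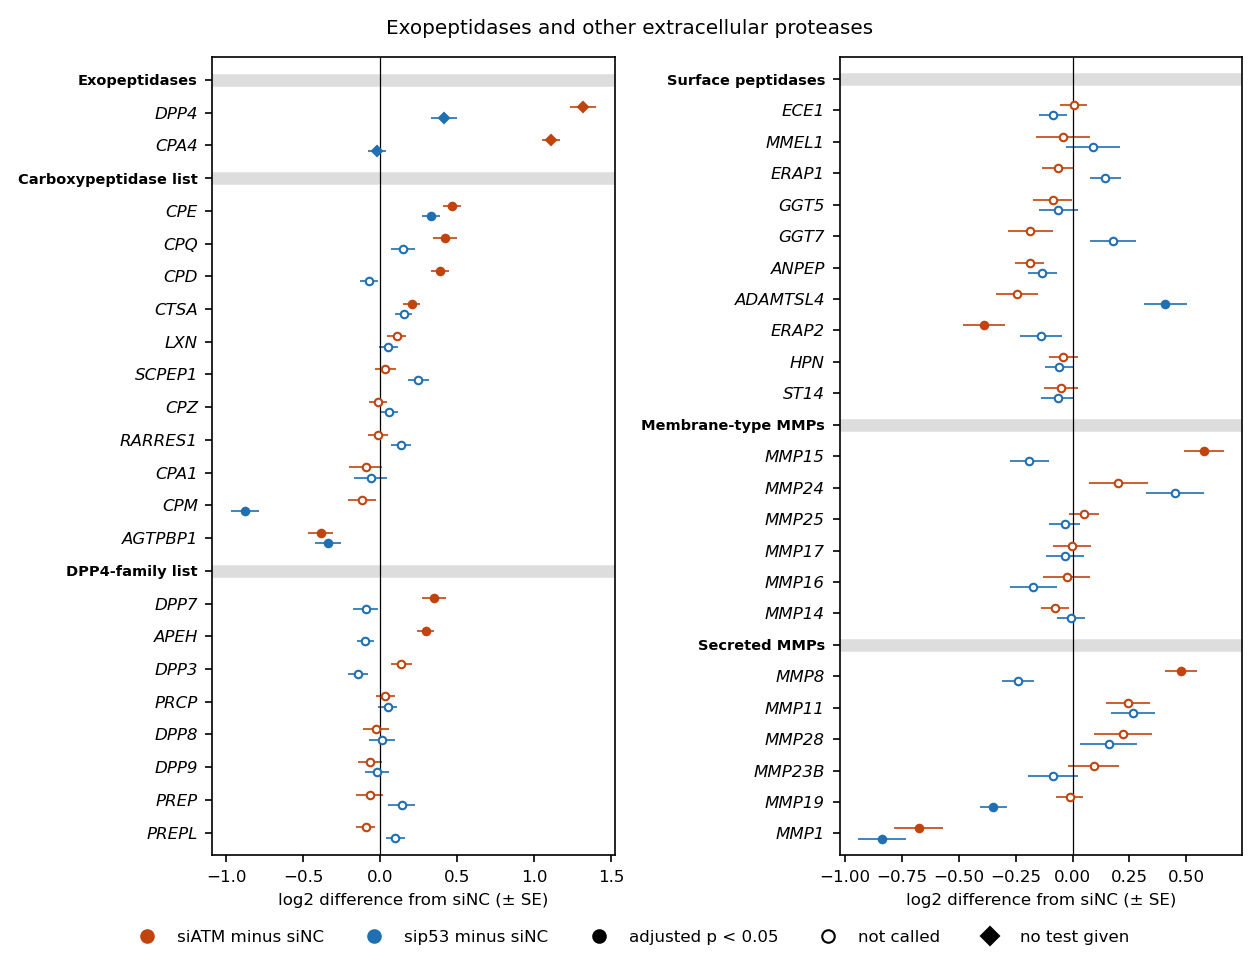
Log2 difference from siNC, with SE, of DPP4 and CPA4 (diamonds) and of other tested peptidase and related genes, for siATM (red) and sip53 (blue). Beside surface and secreted enzymes they include intracellular ones, such as cytosolic DPP8 and DPP9, lysosomal DPP7 and ERAP2 of the endoplasmic reticulum, and the inhibitor gene LXN. Filled circles have a limma adjusted p below 0.05. DPP4 at 1.32 and CPA4 at 1.11 lie to the right of every siATM circle in their panel, and CPM at −0.88 is the lowest sip53 value there.

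The genes whose 6 values were most like each peptidase were found by the root mean square difference of log2 profiles, each set to 0 at its siNC mean. Tested genes with LOC symbols or symbols of several non-coding RNA classes were left out of this comparison and its counts. For DPP4 they were KITLG at 0.117, OLFML3 at 0.148 and AGR2 at 0.148, and no compared gene lay within 0.1 of DPP4. For CPA4 they were SESN3 at 0.0838, DHRS3 at 0.0998 and LRRC15 at 0.131. For ADAM17 they were ZNF610 at 0.0354, the pseudogene RPL23AP87 at 0.0424 and TRPS1 at 0.0431, among 55 genes within 0.1, and for ADAM9 they were RPS27 at 0.0165, PLPP1 at 0.0192 and TMEM107 at 0.0204, among 628. The profiles share the same 6 arrays, so likeness is a description of these arrays.

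**Figure D5:**
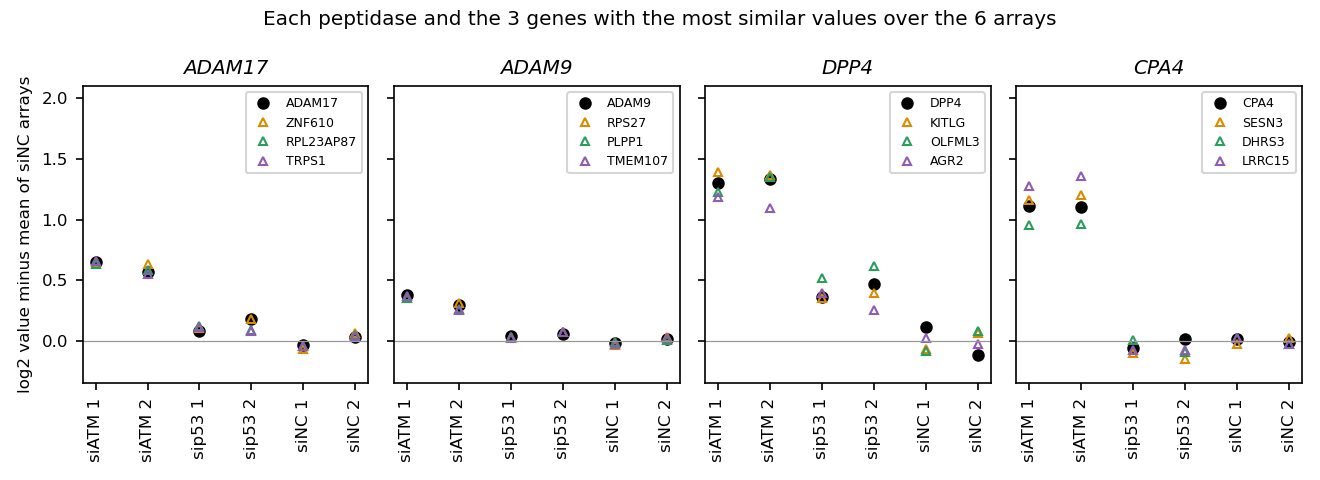
Log2 values minus the mean of the 2 siNC arrays, for each peptidase (black circles) and its 3 most similar genes (triangles), over the 6 arrays. The CPA4 group is raised in the siATM arrays and close to 0 in the sip53 arrays, and the DPP4 group has a middle level with sip53.

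The nearest genes on the array on either side of DPP4, ADAM17 and CPA4, by RefSeq gene order, had siATM differences between −0.22 and 0.27. Beside DPP4, TANK was at 0.10 (limma adjusted p = 0.352), LY75-CD302 at −0.07 (adjusted p = 0.505) and IFIH1 at −0.17 (adjusted p = 0.125) after siATM, and GCG was below the limit. Beside ADAM17, IAH1 was at 0.24 (adjusted p = 0.0274), KLF11 at 0.27 (adjusted p = 0.0402) and ITGB1BP1 at 0.01 (adjusted p = 0.926). Beside CPA4, TMEM209 fell by 0.22 (adjusted p = 0.0304) and CPA1 was at −0.09 (adjusted p = 0.570). IAH1 and TMEM209 lost their calls in 5 of the 6 fits without 1 array, as did KLF11 (adjusted p up to 0.134, 0.126 and 0.168). GRHL1, SSMEM1 and CPA5 were below the limit.

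Markers of other cell types moved in the same arrays. Of 2 tested haematopoietic markers, CD14 rose by 1.19 and LYZ by 0.38 after siATM, and CD14 fell by 0.78 after sip53 (limma adjusted p = 0.000563, 0.00392 and 0.00468). The mean log2 value of these markers lay between 8.42 and 8.46 with siATM, 7.10 and 7.28 with sip53, and 7.65 and 7.67 with siNC. Of 2 tested endothelial and fibroblast markers, LUM was higher and PECAM1 lower after siATM, and LUM was higher after sip53. The mean of that list's 4 named markers lay between 5.55 and 5.65 with siATM, 5.69 and 5.72 with sip53, and 5.54 and 5.64 with siNC, with VWF and DCN below the limit. PECAM1 lost its call without siNC replicate 1 (adjusted p up to 0.07), and LUM after sip53 without either sip53 array or siNC replicate 2 (up to 0.083). The other haematopoietic markers, PTPRC among them, were not analysed here. The mean of the 8 luminal markers lay between 7.95 and 8.06 with siATM, 7.99 and 7.99 with sip53, and 7.91 and 7.92 with siNC. Of 5 tested luminal markers, GATA3 and KRT19 were higher after siATM and GATA3 after sip53. Both luminal siATM calls were lost without siNC replicate 1, GATA3 also without siATM replicate 1 or siNC replicate 2 and KRT19 without siATM replicate 2 (adjusted p up to 0.121 and 0.103). The basal marker ZEB1 was at −0.24 after sip53 (adjusted p = 0.0452) and lost its call whichever array was left out (up to 0.243). The part of these markers in the peptidase values was not tested.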

How the data were processed

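Total RNA of 6 MDA-MB-231 samples was labelled and hybridised to Affymetrix Human Gene 2.0 ST arrays, 1 sample per array, per the labels' protocols. The deposited values are 1 log2 value per probe set, 53617 in all, lying on nearly 1 distribution in every array. How the authors summarised and normalized them is not stated in the labels. The platform annotation gave 1 gene symbol to 16098 probe sets, and for each of 14884 genes the probe set with the highest mean was kept. Groups were taken from the labels.

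Genes with a mean log2 value of at least 5.96, the median of the probe-set means, were tested (10640 genes). The limma test (version 3.58.1, R 4.3.3) fitted group means to all 6 arrays with moderated variances, Benjamini-Hochberg adjustment and an adjusted p threshold of 0.05. Its code was also run on simulated data with planted changes and independent noise. That run checks the code and not the calls made here. With 2 arrays per group and 3 residual degrees of freedom, the number of arrays limits the precision. Both siRNA groups are set against the same siNC arrays.

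The peptidases and all gene lists were chosen with earlier results of these data known. Named genes were up to 4 called genes of each list per siRNA with the largest log2 difference, ADAM10, RHBDF2, TIMP3, LXN and FAP whatever their result, the 3 most similar genes of each peptidase and 2 array-named neighbours on each side. FURIN, CTSA, DPP8, DPP9, MMP14, TNF, VCAM1, NGFR, PRNP and the cell type markers were named outside that rule, after their values were seen. Alternatives changed the filter, scaling, probe-set rule, moderation, block, arrays fitted and arrays kept. The transcripts targeted by the siRNAs are not reported here. Promoter stretches are RefSeq's.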

Additional observations from a re-analysis of the deposited data

Results flagged for a closer look

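CD14, CSF1 and TMEM209 were called against siNC after both siRNAs, in opposite directions. The direct comparison of siATM with sip53 passed for each and held whichever array was left out. Opposite signs with such a direct call were not particular to them. HBEGF, EREG, MICB and MMP15 had these too, but were called against siNC after only 1 siRNA. CD14, a monocyte marker, had log2 values of 9.57 and 9.49 with siATM, 7.72 and 7.41 with sip53, and 8.35 and 8.33 with siNC, so that siATM lay 1.97 above sip53 (limma adjusted p = 9.77e-05). CSF1, which encodes a shed growth factor of macrophages, was at 0.22 after siATM and −0.25 after sip53, a difference of 0.46 (limma adjusted p = 0.00154). Against siNC, its siATM call was lost in every fit without 1 array (adjusted p up to 0.155), and its sip53 call without any 1 of the sip53 and siNC arrays (up to 0.235). TMEM209, a neighbour of CPA4, was at −0.22 after siATM and 0.30 after sip53, a difference of −0.52 (limma adjusted p = 0.000896). Against siNC, its siATM call was kept only without siATM replicate 1 (adjusted p up to 0.126 otherwise), and its sip53 call was lost without any 1 of the sip53 and siNC arrays (up to 0.129).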

How the results depend on the processing

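No peptidase difference changed direction under another filter, scaling, probe-set rule or moderation, with a block, or in a fit of only the 4 arrays of the contrast. Without sip53 replicate 1, the sip53 difference of CPA4 changed sign, to 0.015. The sip53 difference of CPA4, −0.02, was −0.054 with each array centred on its median, and that of ADAM9, 0.05, was 0.017 with this centring and 0.026 with quantile normalization. Without 1 array, the siATM difference from siNC ranged from 0.30 to 0.38 for ADAM9 and from 1.20 to 1.43 for DPP4. The sip53 difference from siNC ranged from 0.083 to 0.18 for ADAM17, from 0.033 to 0.066 for ADAM9, from 0.30 to 0.53 for DPP4 and from −0.058 to 0.015 for CPA4, and siATM minus sip53 from 0.25 to 0.33 for ADAM9 and from 1.09 to 1.17 for CPA4. The number of genes called was 2708 for siATM against siNC (1437 to 2226 without 1 array), 3219 for siATM against sip53 (1842 to 2852) and 1126 for sip53 against siNC (272 to 1242). The last was 481 when all genes were tested and 1742 when robust moderation followed a variance trend. With the replicate number as a block, the calls were 2696, 3218 and 1001. Replicate differences correlated at 0.036 between siATM and siNC, 0.028 between sip53 and siNC and 0.117 between siATM and sip53. These values measure a shared replicate effect and cannot decide whether same-numbered samples were handled together. Of the named genes called for siATM, 27 of 48 were called in all 6 fits without 1 array, against 7 of 25 for sip53. The causes were not tested. With 2 arrays per group, small differences are not resolved.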
